A study of Mus musculus with 4 samples.

Results

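Gpr55, Lmna, Trat1, Nmrk1, Cntn1, Cd7, Gcnt1 and Adora3 are 8 of the 31053 genes counted in these libraries. They were chosen by their UMI levels in T or NK cells, which read lower in 2323 tumors than in control skin, so their tumor values in T and NK cells describe the choice and carry no test. All 8 were found in every count file. CD45+ cells were sorted from 2 skins of uninoculated C57/BL6 mice (C57) and from 2 skin tumors (2323-Tumor), and each sample gave a single 10x library of 3′ ends. The tumors had grown for about 2 weeks from 2323 cells injected into the flank of C57BL/6 mice aged 8 to 10 weeks. The 2323 line came from a graft of a mouse skin tumor of a model with K14rtTA, tetOCre and P53-/- among its alleles, in which keratin 14 drives the system in epidermal cells, and it stands for 1 tumor of origin. The host mice kept their own immune cells, and all samples were digested with collagenase for 2 h. The control mice received no injection, so the effects of the graft, the injection and the site cannot be told apart.

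The libraries held 2258 to 5176 cells and 34893543 to 73904272 UMIs (unique molecular identifiers), and 1994 to 4784 cells passed the filters with a median of 10610 to 13362 UMIs per cell. Lymphocytes were gated by marker counts, giving 1239 and 1073 cells in the control skins and 705 and 304 in the tumors. Pairs of libraries shared 1 to 7 cell barcodes. Levels below are UMIs of a gene per 10,000 UMIs of all cells of a gate in a library, always in the order control 1, control 2, tumor 1 and tumor 2.

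Part of the lymphocytes of healthy skin stay in the tissue and do not return to the blood. Integrin αE (Itgae, CD103), which binds E-cadherin on keratinocytes, and integrin α1 (Itga1, CD49a), which binds collagen, mark many of them. The mouse epidermis holds a further resident population, the dendritic epidermal T cells (DETC), with an invariant γδ receptor. Of the genes described here, Gpr55 and Adora3 encode G protein-coupled receptors, for lysophosphatidylinositol and for adenosine (the A3 receptor). Cd7 and Cntn1 encode surface proteins of the immunoglobulin superfamily, and contactin 1 is best known from neurons. Trat1 encodes the adaptor TRIM, which sits with the T cell receptor complex. Gcnt1 encodes the enzyme that starts the core 2 branch of O-glycans, on which selectin ligands are built, and Nmrk1 the nicotinamide riboside kinase of NAD synthesis. Lmna encodes lamin A/C of the nuclear lamina.

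Promoter windows of 250 bases before the RefSeq start were on hand for 7 of the 8 genes (GRCm38.p6). The windows of Gpr55 and Trat1 are shown because these genes had the lowest tumor to control ratios in CD8 T cells. A window of Cntn1 and that of Adora3 are shown because levels of these genes were highest in DETC or mast cells. Each is written 5′ to 3′ on the gene's strand, and capitals mark matches to the motifs named after them. Gpr55 lies at chr1:85938318-85961007 (minus strand) and its window at chr1:85961056-85961305. Trat1 lies at chr16:48730774-48772021 (minus) with its window at chr16:48772063-48772312. Cntn1 lies at chr15:92051165-92341967 (plus) with the window shown at chr15:92050915-92051164, and Adora3 at chr3:105870858-105908926 (plus) with its window at chr3:105904171-105904420. The other Cntn1 windows, at chr15:92127878-92128127 and chr15:92161107-92161356, held no match and are not shown.
Gpr55: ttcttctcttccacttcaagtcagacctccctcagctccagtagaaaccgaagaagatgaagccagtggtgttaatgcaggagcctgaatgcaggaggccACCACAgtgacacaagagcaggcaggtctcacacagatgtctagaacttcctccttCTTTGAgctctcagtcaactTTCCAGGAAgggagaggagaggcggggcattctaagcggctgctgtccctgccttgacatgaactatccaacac
Trat1: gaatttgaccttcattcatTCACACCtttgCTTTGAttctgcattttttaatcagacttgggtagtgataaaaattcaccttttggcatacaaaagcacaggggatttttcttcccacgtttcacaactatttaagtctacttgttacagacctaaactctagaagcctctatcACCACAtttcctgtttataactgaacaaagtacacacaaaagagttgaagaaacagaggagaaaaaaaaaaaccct
Cntn1: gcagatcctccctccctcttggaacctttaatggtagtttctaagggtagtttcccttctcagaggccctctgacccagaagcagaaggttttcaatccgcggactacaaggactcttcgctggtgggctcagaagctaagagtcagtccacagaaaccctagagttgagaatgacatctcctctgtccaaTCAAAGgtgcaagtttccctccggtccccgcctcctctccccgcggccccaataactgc
Adora3: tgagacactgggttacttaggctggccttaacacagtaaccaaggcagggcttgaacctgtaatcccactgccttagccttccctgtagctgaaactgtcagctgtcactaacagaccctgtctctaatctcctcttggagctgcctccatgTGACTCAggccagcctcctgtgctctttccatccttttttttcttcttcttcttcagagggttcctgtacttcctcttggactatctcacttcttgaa

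Both strands were searched for 11 motifs, spelled RUNX TGTGGT, AP-1 TGACTCA, NR4A AAAGGTCA, TCF CTTTGA, T-box GGTGTGA, NFAT GGAAAA, AhR GCGTG, STAT TTCNNNGAA, ETS CCGGAA, KLF CACCC and E-box CACCTG. The RUNX letters stood in windows of Gpr55, Trat1 and Lmna, and in 14.0% of all promoter windows. The TCF letters stood in windows of Gpr55, Trat1 and Cntn1, and in 13.8% of all windows. Trat1 had the T-box letters (3.33% of all windows), Gpr55 the STAT letters (7.02%) and Adora3 the AP-1 letters (4.46%). The NR4A letters were in none of the 7 genes' windows and in 1.34% of all. The NFAT and E-box letters were in a window of Gcnt1 (20.4% and 17.2% of all windows) and the ETS letters in 1 of Lmna (12%). The AhR letters were in windows of Gcnt1 and Nmrk1 (28.2%) and the KLF letters in those of Gcnt1 and Lmna (52.0%). A gene with several starts has several windows and so more chances of a match, and a match is a description of letters only.

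The remaining genes lie at chr3:88480147-88509956 (Lmna, minus strand), chr19:18631950-18652428 (Nmrk1, plus), chr11:121036747-121039418 (Cd7, minus) and chr19:17326141-17372844 (Gcnt1, minus), in GRCm38 with GENCODE M21. Adora3 overlaps Tmigd3 on the same strand, so reads of these genes could be split by the counting and the level of Adora3 is uncertain.

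In T and NK cells the genes did not form a single pattern. Gpr55, Lmna and Gcnt1 were lower in both tumors than in both control skins in CD8 T, CD4 conventional T, Treg and NK gates. Trat1 and Cd7 were lower in CD8 and CD4 conventional T cells. Trat1 levels overlapped in Tregs and Cd7 levels overlapped in NK cells, while Nmrk1 was higher in both tumors in CD4 conventional T cells. Adora3 was barely detected in αβ T cells of any library, and Cntn1 had at most 0.255 UMIs per 10,000 in the CD8 T, CD4 conventional T and Treg gates. In CD8 T cells 7 of the 8 genes lay lower in both tumors without overlap, where 20.1% of all genes tested did. Adora3, counted among the 7 but too low to test, had 2 and 3 UMIs in the control skins and 4 in the tumors together. The counts were 5 in CD4 conventional T cells (all genes, 22.3%), 4 in Tregs (23.3%) and 6 in NK cells (23.1%). These counts follow from how the genes were chosen and are taken over all 8 genes. The shares of all genes cover only genes high enough to test, which were 6, 7, 6 and 6 of the 8 in these gates. Sums over a gate cannot tell fewer expressing cells from less RNA per cell, so shares of cells with a UMI are given beside the levels.

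**Figure D1:**
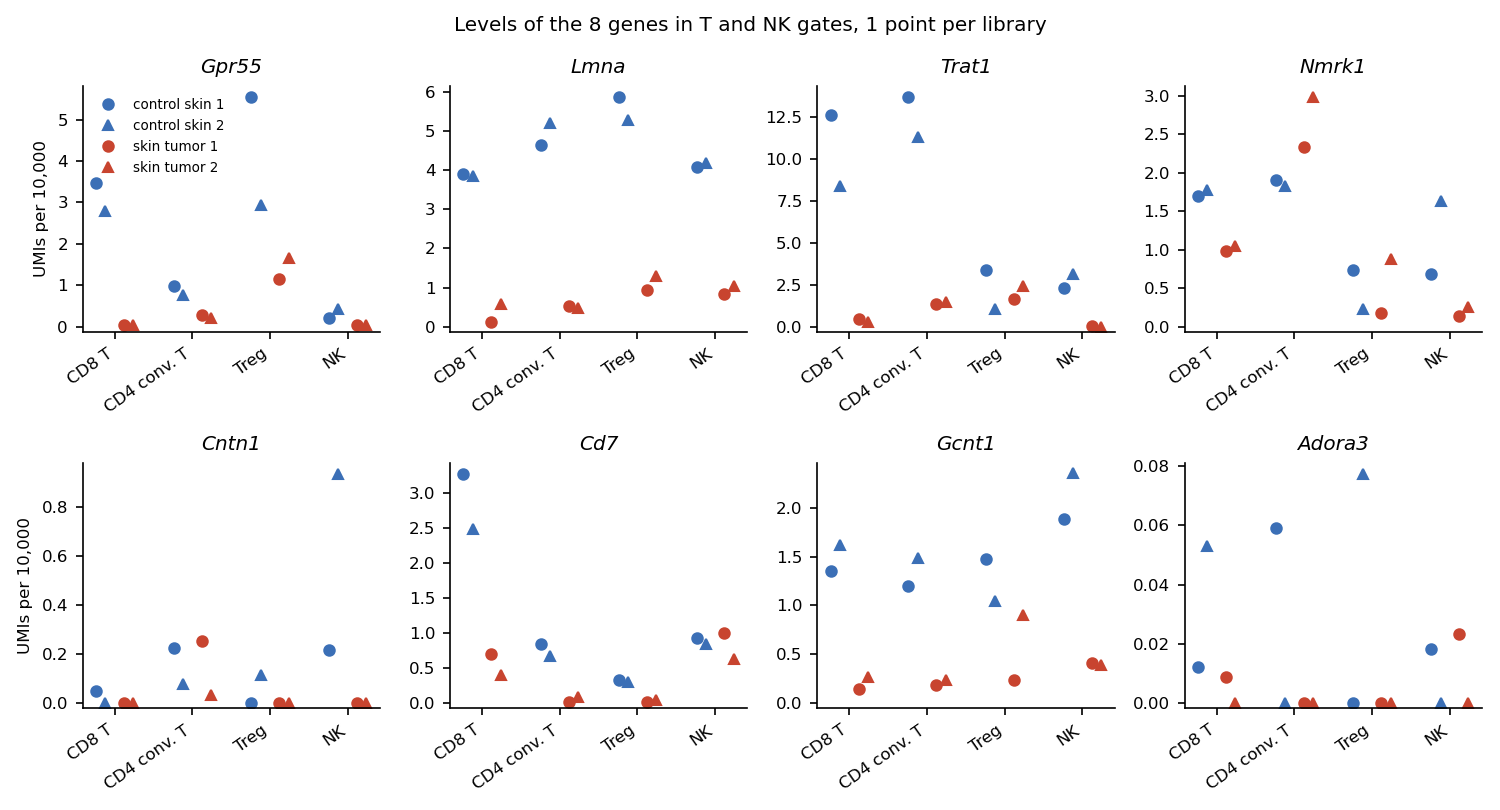
UMIs per 10,000 (linear axis, own scale per gene) of the 8 genes in CD8 T, CD4 conventional T, Treg and NK gates, with 1 point per library and no error bars. The tumor points of Gpr55, Lmna and Gcnt1 lie under the control points in all 4 gates, and Nmrk1 lies above them in CD4 conventional T cells.

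The receptor gene Gpr55 showed the widest gap of the genes in CD8 T cells. Its level in CD8 T cells was 3.46, 2.79, 0.034 and 0.051 UMIs per 10,000. The tumor libraries thus held 15 and 3 UMIs of Gpr55 in 279 and 47 CD8 T cells, against 562 and 158 in 143 and 48 control cells. The share of CD8 T cells with a UMI was 77.6% (95% Clopper-Pearson interval 69.9 to 84.2), 79.2% (65.0 to 89.5), 4.30% (2.24 to 7.39) and 2.13% (0.054 to 11.3). In tumor macrophages, a cell type with 18608 and 18938 UMIs per cell at the median, 6.60% and 13.2% of cells had one, more than in tumor CD8 T cells with 13375 and 10037. After thinning to 2500 UMIs the tumor shares were 1.80% and 2.13% in CD8 T cells and 1.07% and 1.88% in macrophages, and those of control CD8 T cells 49.0% and 45.8%. In Tregs the level was 5.54, 2.94, 1.16 and 1.67, so the tumor values stayed above those of every other αβ T gate in tumors. In CD4 conventional T cells it was 0.979, 0.757, 0.274 and 0.222. In NK cells it was 0.200, 0.422, 0.035 and 0.047, which rests on 11, 14, 3 and 2 UMIs. The log2 ratio of tumor to control was -6.56 ± 0.34 (SE) in CD8 T, -1.89 ± 0.31 in CD4 conventional T and -1.59 ± 0.33 in Treg cells. Over the 11 alternative settings tried, it ranged from -6.76 to -6.04 in CD8 T cells.

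Cd7 followed the T cells but not the NK cells. In CD8 T cells its level was 3.26, 2.49, 0.704 and 0.407 UMIs per 10,000, and in CD4 conventional T cells 0.850, 0.679, 0.019 and 0.082. Both tumors lay under both controls in each of these gates, with log2 ratios of -2.45 ± 0.31 and -4.05 ± 0.52. In NK cells the level was 0.927, 0.845, 1.01 and 0.629, and the log2 ratio was -0.07 ± 0.30, from -0.53 to 0.19 over the alternatives. The share of NK cells with a UMI was 55.9% ± 4.6 (SD, n = 2) in control skins and 37.0% ± 14.0 in tumors, and 11.5% ± 9.8 and 14.0% ± 4.7 after each cell was thinned to 2500 UMIs. In Tregs Cd7 was at 0.332, 0.309, 0.011 and 0.044, a low gene throughout.

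The adaptor gene Trat1 was at 12.6, 8.36, 0.442 and 0.305 UMIs per 10,000 in CD8 T cells. In CD4 conventional T cells it was at 13.6, 11.3, 1.34 and 1.46. The log2 ratios were -4.90 ± 0.36 and -3.22 ± 0.26. The share of CD8 T cells with a UMI was 89.2% ± 2.4 (SD, n = 2) in control skins and 20.5% ± 1.9 in tumors, and a positive cell held 15.7, 11.3, 3.25 and 2.00 UMIs, so both share and amount per positive cell were lower. Tregs differed from the other αβ T cells, with 3.40, 1.08, 1.64 and 2.39 and overlapping groups, and 36 of the 92 UMIs in control 1 came from 1 cell. In NK cells, which were gated to have no CD3 UMI, Trat1 was at 2.31, 3.14, 0.047 and 0, with 127, 104, 4 and 0 UMIs. Of the 104 UMIs in control 2, 55 came from 1 cell. Trac was at most 0.0702 and Trdc at most 0.187 UMIs per 10,000 in the NK gate of any library, and neither was higher in both control skins than in both tumors. The gate allowed at most 1 Trdc UMI per cell, so the low Trdc level follows from the gate. The part of T cells in the Trat1 value of this gate was not tested.

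The glycan enzyme gene Gcnt1 was at 1.36, 1.62, 0.150 and 0.271 UMIs per 10,000 in CD8 T cells. It was at 1.20, 1.49, 0.189 and 0.234 in CD4 conventional T cells and at 1.89, 2.35, 0.410 and 0.396 in NK cells. The log2 ratios were -3.15 ± 0.32, -2.72 ± 0.27 and -2.37 ± 0.27. Treg levels of 1.48, 1.04, 0.235 and 0.900 put tumor 2 close to control 2. The NAD gene Nmrk1 was at 1.69, 1.78, 0.985 and 1.05 in CD8 T cells, a log2 ratio of -0.93 ± 0.21. In CD4 conventional T cells it was at 1.90, 1.83, 2.33 and 2.98, the opposite order. There a smaller share of tumor cells held a UMI (49.6% ± 12.9 against 61.1% ± 0.8, SD, n = 2), and a positive cell held 3.58, 3.04, 5.26 and 4.72 UMIs. In NK cells Nmrk1 was at 0.690, 1.63, 0.140 and 0.256, and 18 of the 54 UMIs in control 2 came from 1 cell. Treg levels of 0.738, 0.232, 0.181 and 0.878 overlapped.

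Lmna was the most uniform of the genes in control skin, with 3.86 to 5.87 UMIs per 10,000 in the CD8 T, CD4 conventional T, Treg and NK gates of both libraries. In CD8 T cells it was at 3.91, 3.86, 0.116 and 0.576, and in CD4 conventional T cells at 4.65, 5.20, 0.520 and 0.468. In Tregs it was at 5.87, 5.29, 0.938 and 1.3, and in NK cells at 4.09, 4.19, 0.831 and 1.05. No gate overlapped, and the log2 ratios were -4.07 ± 0.60, -3.37 ± 0.23, -2.33 ± 0.28 and -2.15 ± 0.24. In CD8 T cells the tumors differed from each other, and the ratio was -2.87 without tumor 1 and -5.19 without tumor 2. After thinning to 2500 UMIs, 58.7% ± 19.8 of control NK cells and 18.2% ± 1.3 of tumor NK cells had a UMI (SD, n = 2).

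Cntn1 and Adora3 were low in these gates. Cntn1 had 8, 0, 0 and 0 UMIs in the CD8 T gates. In the remaining αβ T cells, which fit none of the CD8, CD4 conventional and Treg gates, it had 36, 13, 0 and 1 UMIs, or 0.358, 0.311, 0 and 0.0241 per 10,000. There both tumors lay under both control skins. In NK cells it had 12, 31, 0 and 0, and 28 of the 31 in control 2 came from 1 cell of 22. Taken over the groups, the control NK level was at least 20.9-fold higher than the limit that 3 counts set for the tumors, and it rests on that cell. Adora3 had at most 0.077 UMIs per 10,000 in any CD8 T, CD4 conventional T, Treg or NK gate.

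The control-skin NK gate differed from the tumor gate in other genes too. Eomes was at 1.31, 2.20, 3.50 and 3.45 UMIs per 10,000, Itga2 at 0.363, 0.453, 1.42 and 1.91, and Itga1 at 1.29, 0.905, 0.211 and 0.140. Itgae was at 2.58, 2.84, 0.0117 and 0.0466. The gate thus held cells of unlike marker genes in skin and tumor, and the part of this in the values of the NK gate was not tested. In CD8 T cells Itgae was at 3.98, 4.16, 0.0268 and 0.0169.

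Among lymphocytes of control skin, Cntn1, Cd7, Adora3 and Lmna had their highest mean in DETC. The share of all genes that did was not counted. Cntn1 was at 3.62 and 3.83 UMIs per 10,000 there, Cd7 at 9.85 and 9.03, and Adora3 at 1.08 and 1.10. The next lymphocyte gate was at 0.218 and 0.935 for Cntn1 (NK), 3.26 and 2.49 for Cd7 (CD8 T) and 0.396 and 0.102 for Adora3 (dermal γδ T), none of which reached the DETC values. Lmna in DETC (6.32 and 6.99) overlapped the remaining αβ T cells (4.24 and 6.34). Of control DETC, 80.8% and 84.9% had a UMI of Cntn1 (intervals 77.6 to 83.8 and 82.0 to 87.4), against 2.27% and 1.81% of Langerhans cells, whose median depth was higher (17114 and 17850 against 10634 and 10953). Gpr55 was at 0.690 and 0.686 in DETC, below Tregs and CD8 T cells. For Gpr55 the order Treg, CD8 T, remaining αβ T, CD4 conventional T and DETC overlapped only between Treg and CD8 T cells. Trat1 in control skin was highest in CD4 conventional T, DETC and CD8 T cells, whose libraries overlapped, and Nmrk1 in ILC2 (1.96 and 2.96), which overlapped the remaining αβ T cells (2.00 and 1.98).

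**Figure D2:**
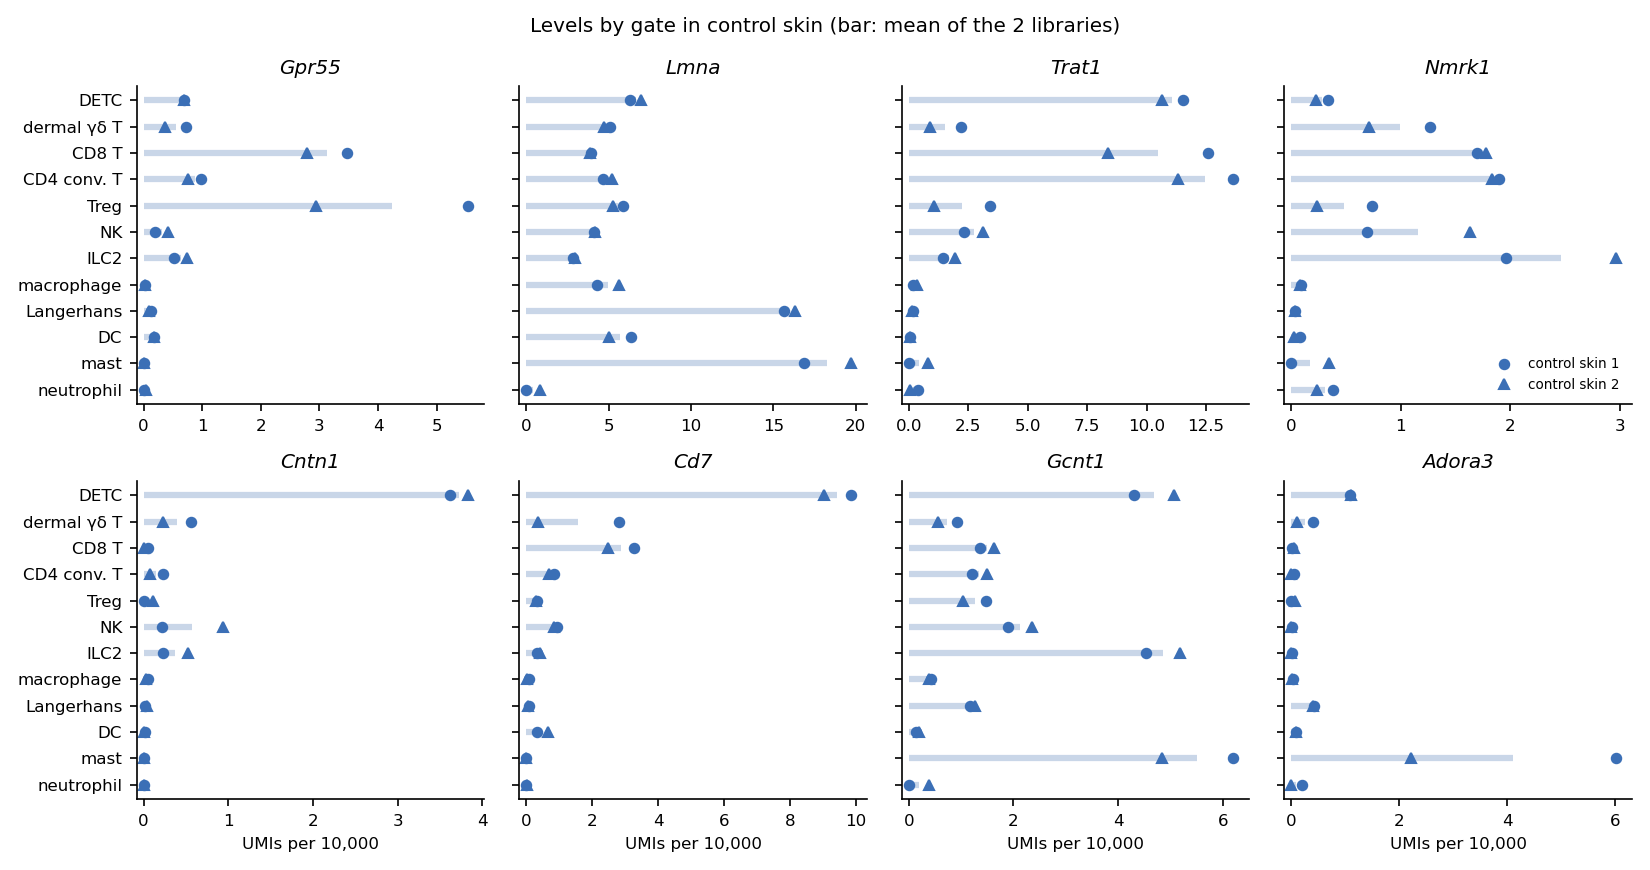
UMIs per 10,000 (linear axis, own scale per gene) in 12 gates of control skin, with 1 point per library and a pale bar to the mean of both. Cntn1 and Cd7 were highest in DETC, Gpr55 in Tregs and CD8 T cells, and the means of Lmna, Gcnt1 and Adora3 in mast cells.

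Levels between innate-like lymphocytes of control skin were tested with edgeR's quasi-likelihood test on sums per gate and library, with the library as a block. The choice of the genes compared tumors with control skin, not these gates with each other. DETC and dermal γδ T cells are T cells, however, so their control levels can have had a part in it. The calls between these gates are thus not independent of the choice. Against type 2 innate lymphoid cells (ILC2), 6 of the 8 genes differed in DETC at an adjusted p under 0.05, where 39.6% of all 11036 genes tested did. Cd7 was higher in DETC by 4.78 ± 0.14 on the log2 scale (adjusted p = 3.23e-09), Cntn1 by 3.44 ± 0.21 (2.82e-07) and Trat1 by 2.81 ± 0.13 (5.7e-08). Lmna was higher by 1.27 ± 0.10 (2.78e-06), at 6.32 and 6.99 against 2.83 and 2.97 UMIs per 10,000. Adora3 was higher as well, but ILC2 held 1 UMI of it in all, so no fold is given. Nmrk1 was lower by 3.04 ± 0.22 (a log2 difference of -3.04, adjusted p = 1.32e-06), with 0.337 and 0.229 in DETC. Gcnt1 was at 4.30 and 5.07 in DETC and 4.53 and 5.19 in ILC2, a difference of 0.02 ± 0.10 (adjusted p = 0.906). Gpr55 differed by 0.21 ± 0.18 (0.390).

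Dermal γδ T cells, the IL-17 type γδ cells of the dermis, stood apart from DETC as well. Of the 8 genes 6 differed (all genes, 17.7%), with Cntn1 at 3.35 ± 0.31, Trat1 at 3.01 ± 0.27, Cd7 at 2.98 ± 0.49, Gcnt1 at 2.76 ± 0.26 and Adora3 at 2.25 ± 0.39 higher in DETC on the log2 scale in edgeR (adjusted p from 0.000143 to 0.0035). Nmrk1 was lower in DETC (-1.71 ± 0.26, adjusted p = 0.00167). Gpr55 (0.44 ± 0.30, 0.378) and Lmna (0.51 ± 0.18, 0.0803) did not pass. Cd7 in the dermal cells was uneven, at 2.81 and 0.347. Against ILC2, dermal γδ T cells were lower in Gcnt1 (-2.76 ± 0.26, adjusted p = 0.000317) and Nmrk1 (-1.32 ± 0.31, 0.0332) and higher in Lmna (0.74 ± 0.19, 0.0431), 3 of 7 genes tested where 7.28% of all genes passed. DESeq2 called 1 of these 3, Gcnt1.

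Tumors held few DETC, with 13 and 21 cells, and the levels there are a description. Tumor 2 was closer to control skin than tumor 1 for 7 of the 8 genes, all but Nmrk1. The share of all genes with this order was not counted, so it cannot be read as a trait of these genes. Trat1 was at 11.5, 10.6, 0.704 and 6.70, Cntn1 at 3.62, 3.83, 0.563 and 3.22 and Gcnt1 at 4.30, 5.07, 0.986 and 3.99. The gate of tumor 1 also held Eomes at 1.90 and S1pr1 at 0.774 UMIs per 10,000, while that of tumor 2 held 0 of both. Without tumor 1 the log2 ratio of Cntn1 moved from -1.11 to -0.38, of Gcnt1 from -1.06 to -0.40, of Lmna from -1.24 to -0.55, of Trat1 from -1.72 to -0.90, of Cd7 from -1.84 to -1.29 and of Adora3 from -1.35 to -0.59. Gpr55 moved from -0.50 to 0.25. Of the 8 genes 7 lay lower in both tumors, where 24% of all genes tested did. Tumor ILC2 were as few (13 and 13 cells), and Trat1 was higher there, at 1.42, 1.95, 3.60 and 7.15, together with Trac (0.264, 0.112, 1.62 and 1.06) and Foxp3 (0.0696, 0.0881, 1.08 and 1.06), which ILC2 should lack. A single cell gave 9 of the 20 Trat1 UMIs in tumor 1 and another 27 of the 47 in tumor 2. The part of these transcripts and cells in the Trat1 value was not tested. Of the genes, 4 lay lower and 1 higher in tumor ILC2, where 24% of all genes tested were lower without overlap.

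The split of αβ T cells by integrin message is a comparison inside each library. In control skins 86.6% and 86.5% of αβ T cells had a UMI of Itgae or Itga1, and in tumors 19.1% and 23.5%. The genes were chosen for lower levels in tumor T or NK cells, where this share was lower too. The calls of the split are thus not independent of the choice. Gpr55 was higher in cells with such a UMI in all 4 libraries. It was at 2.62, 2.00, 0.651 and 1.53 UMIs per 10,000 with one and at 1.12, 0.943, 0.154 and 0.179 without. The log2 difference was 1.93 ± 0.26 (edgeR with library as a block, adjusted p = 0.0020). Gcnt1 was at 1.43, 1.45, 0.333 and 0.706 with and at 0.919, 0.776, 0.147 and 0.369 without (0.94 ± 0.17, adjusted p = 0.0151). Lmna was at 4.51, 5.09, 0.917 and 1.24 with and at 2.63, 4.66, 0.241 and 0.513 without (1.04 ± 0.22, adjusted p = 0.0408). These 3 of 6 genes tested passed, where 1.17% of all 8575 genes did. With no library block, which ignores that both sums come from the same library, none of the 3 did (edgeR, adjusted p = 1.00 each, with log2 differences of 1.86 for Gpr55, 1.12 for Gcnt1 and 0.74 for Lmna). With the block, Trat1 (0.48 ± 0.22, adjusted p = 0.536), Cd7 (0.50 ± 0.42, 0.814) and Nmrk1 (-0.40 ± 0.26, 0.740) did not pass. Cd7 passed in control libraries alone (1.55, adjusted p = 0.00528) and without tumor 1 (1.40, 0.0315).

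The call of Gpr55 held without Treg cells (1.94, adjusted p = 0.0382), in control libraries alone (1.22, 0.00939) and in tumor libraries alone (2.51, 0.00453), settings added after the data were seen. That of Gcnt1 was lost in these 3 settings, with log2 differences of 1.05, 0.78 and 1.06 (adjusted p = 0.0863, 0.221 and 0.0995), and without tumor 1 (0.84, 0.150) or tumor 2 (0.96, 0.0753). Without Treg cells its difference was thus no smaller than with them. Lmna passed in tumor libraries alone (1.63, adjusted p = 0.00898). It lost its call without Treg cells (1.13, 0.150), with a lineage limit of 10 (1.12, 0.0688) and without control 1 (1.12, 0.0907), where the difference was no smaller, and in control libraries alone (0.51, 0.255) and without tumor 1 (0.73, 0.234) or tumor 2 (0.99, 0.153), where it was. Tregs made up 9.9%, 20.9%, 37.2% and 45.1% of the cells with an integrin UMI and 0%, 4.8%, 10.0% and 12.7% of those without. For CD4 conventional T cells these shares were 17.1%, 19.4%, 15.9% and 19.6% with and 51.1%, 57.1%, 20.4% and 49.4% without. CD8 T cells made up more of the side with a UMI in both control skins and less in both tumors. Gpr55 was higher in CD8 T than in CD4 conventional T cells of control skin, and lower in tumors. The part of this mix of gates in the differences of the split was not tested, and leaving out Treg cells does not remove it. Lmna on the side with an integrin UMI was at 4.51 and 5.09 in control skins and 0.917 and 1.24 in tumors, and on that side Trat1 was at 11.2, 6.94, 1.17 and 3.10.

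**Figure D3:**
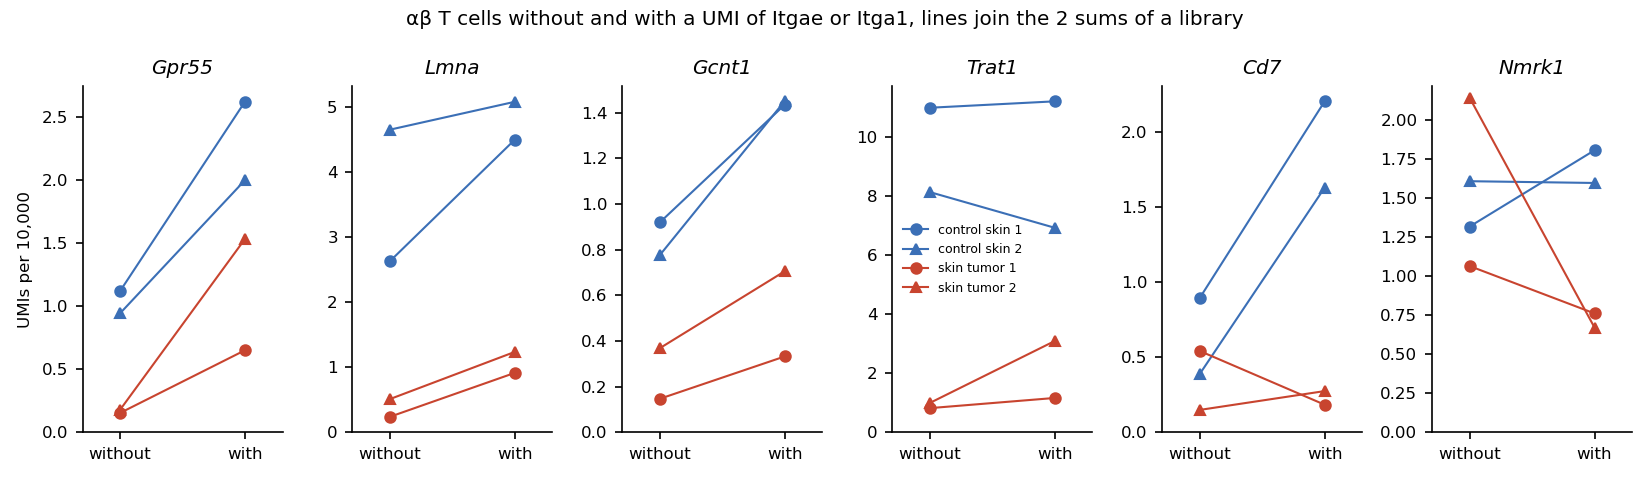
UMIs per 10,000 (linear axis, own scale per gene) in αβ T cells without and with a UMI of Itgae or Itga1, with a line joining the values of each library. The lines of Gpr55, Lmna and Gcnt1 rise in all 4 libraries, and those of Trat1, Cd7 and Nmrk1 run in both directions.

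Among NK cells only control 1 and tumor 1 had 10 cells on each side of this split. None of 4 genes tested passed in edgeR, where 0.251% of all 4388 genes did, and none passed at an unadjusted p under 0.05 (0 of 4, all genes 6.2%) or in DESeq2 (0 of 4). Lmna was at 4.46 with and 3.01 without an integrin UMI in control 1, and at 1.00 and 0.794 in tumor 1, a difference of 0.50 ± 0.31 on the log2 scale (adjusted p = 0.912 in edgeR).

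Myeloid cells were not part of the choice of genes, and there Lmna passed the test in dendritic cells and not in macrophages or mast cells. In dendritic cells it was at 6.37, 5.00, 0.688 and 1.03 UMIs per 10,000, with 33, 51, 235 and 52 cells. The log2 ratio of tumor to control was -2.91 ± 0.27 (edgeR, adjusted p = 0.00871), and Lmna was the 1 gene called of 4 tested, where 7.43% of all 8004 genes were. It kept its call under all 9 alternatives, from -3.21 to -2.64. Lyz2 lay lower too in this gate, at 16.8, 13.5, 2.15 and 5.09, and Cd207, the langerin of Langerhans cells, was at 1.02, 0.412, 0.0133 and 0, against 57.5 and 46.5 in control Langerhans cells. Their part in the result was not tested. The other genes gave no call, except that Gcnt1 passed without the 5% of cells with most UMIs (1.85, adjusted p = 0.0372). Cd7 was at 0.316, 0.652, 0.290 and 0.470 in dendritic cells (-0.59 ± 0.41, adjusted p = 0.385), Gcnt1 at 0.135, 0.192, 0.299 and 0.244 (0.57 ± 0.34, 0.314) and Gpr55 at 0.180, 0.173, 0.248 and 0.136 (0.05 ± 0.40, 0.952).

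In macrophages Lmna was at 4.32, 5.65, 1.73 and 2.76. The log2 ratio was -1.35 ± 0.30 and did not pass in edgeR (adjusted p = 0.129). None of 7 genes passed there, where 0.335% of all 11650 genes did, while 4 had an unadjusted p under 0.05 (all genes, 13.2%) and DESeq2 called 2, Lmna (adjusted p = 0.00452) and Trat1 (5e-06). With a replicate block Lmna (-1.38, edgeR adjusted p = 0.0266) and Trat1 (-3.96, 0.00222) passed, and with no filter on low counts Gcnt1 and Cd7 passed as well. Leaving out tumor 1 gave calls of Trat1 and Gcnt1, and leaving out tumor 2 calls of Lmna and Trat1. Neutrophils were not tested, and their Lmna levels of 0, 0.823, 0.339 and 0.832 overlapped. Trat1 was at 0.183, 0.348, 0.009 and 0.034 in macrophages, and Trdc, which these cells should lack, moved with it at 0.104, 0.108, 0.000523 and 0.00251. Its part in the Trat1 value was not tested. The tumor levels of Gpr55 lay above the control levels, at 0.0261, 0.0249, 0.0486 and 0.0905 (1.26 ± 0.64, adjusted p = 0.470), and rested on 2, 6, 186 and 108 UMIs.

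Mast cells had the highest mean Lmna, Gcnt1 and Adora3 levels of all control gates, from 14 and 34 cells, although Gcnt1 overlapped ILC2 and DETC. Lmna was at 16.9, 19.7, 5.50 and 6.45 (log2 ratio -1.34 ± 0.34, edgeR adjusted p = 0.123). Gcnt1 was at 6.20, 4.84, 2.26 and 1.69 (-1.17 ± 0.40, 0.213). All 3 genes tested lay lower in both tumors without overlap, where 35.5% of all genes did. None passed in edgeR, where 0.743% of 2421 genes did, 2 had an unadjusted p under 0.05 (all genes, 14.7%) and DESeq2 called 0. Lmna passed without tumor 1 (-1.33, adjusted p = 0.0111) or tumor 2 (-1.32, 0.0115), and Gcnt1 without tumor 1 (-1.49, 0.0395). Adora3, a receptor known for its action on mast cells, was at 6.01, 2.21, 2.18 and 2.00 (-0.60 ± 0.51, 0.618). The log2 ratio of Adora3 became 0.20 without control 1, which held the 1 high value. Langerhans cells, with 1 and 5 cells in the tumors, were not compared. Their Lmna level was 15.6 and 16.3 in control skins.

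**Figure D4:**
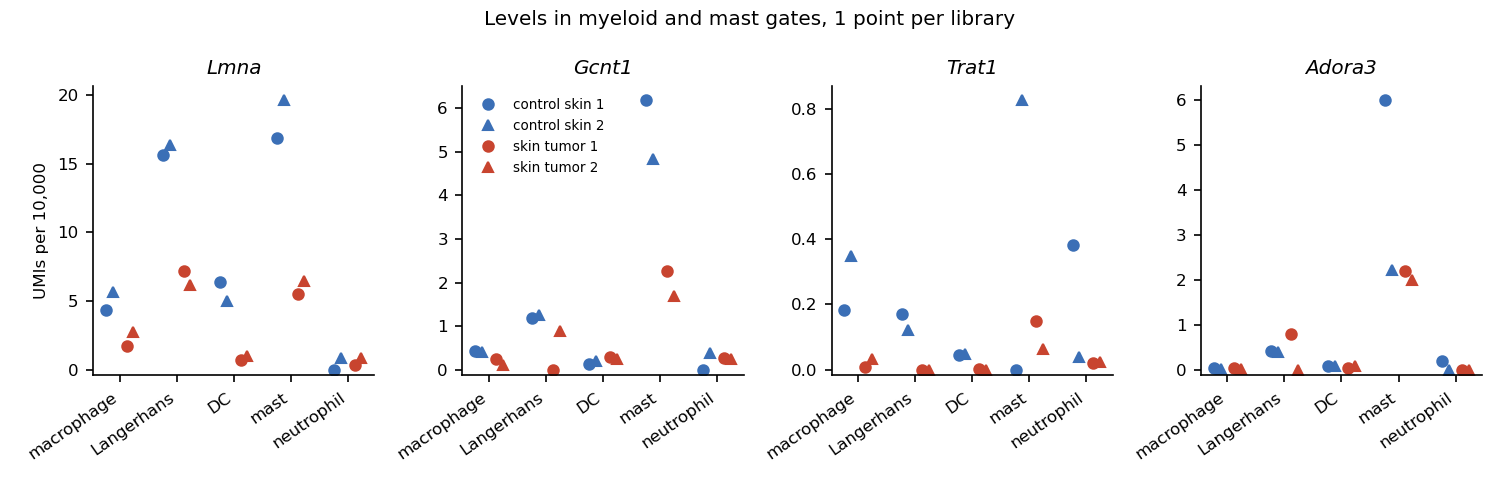
UMIs per 10,000 (linear axis, own scale per gene) of Lmna, Gcnt1, Trat1 and Adora3 in 5 myeloid and mast gates, with 1 point per library. The Lmna points of both tumors lie under those of both control skins in macrophages, dendritic cells and mast cells, and the Langerhans points of the tumors rest on 1 and 5 cells.

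Other genes of the pathways around these genes were tested in the same fits (edgeR, adjusted p under 0.05). These lists were chosen with earlier results of these data known, so their counts are a description. Of all genes 8.31% passed in CD8 T cells, 7.84% in CD4 conventional T, 3.61% in Treg and 5.68% in NK cells. A UMI of Itgae or Itga1 was held by 93.7% and 91.7% of control CD8 T cells and by 8.96% and 14.9% of those in tumors. For CD4 conventional T cells these shares were 68.5%, 68.4%, 15.5% and 10.9%. Fell and rose thus compare gates of unlike cells in skin and tumor, and the part of this in the values was not tested. Around Trat1, 6 of 16 adaptor and costimulation genes of the T cell receptor fell in tumor CD8 T cells and none rose (list median -0.84 on the log2 scale, all genes 0.03). Pag1, which anchors the kinase Csk, fell by 2.71 ± 0.35 and the costimulatory receptor Cd28 by 2.05 ± 0.24, at 9.93, 8.44, 2.42 and 2.56. Sit1 fell by 1.86, Grap2 by 1.66, Ptpn22 by 1.06 and Lat by 1.02. In CD4 conventional T cells 3 fell (Cd28, Pag1, Grap2) and 2 rose (Cd247 and Themis), in NK cells 1 of 12 fell (Cd28, -1.01 ± 0.26), and in Tregs none of 16 passed in either direction. In the split by integrin UMI, Ctla4 was higher with one (1.16 ± 0.12, adjusted p = 0.000229) and Themis lower (-0.99 ± 0.21, 0.0352). Tregs made up more of the side with a UMI in every library, and their part in these values was not tested.

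Around Gpr55, 5 of 9 lysolipid and oxysterol receptors tested fell in tumor CD8 T cells and none rose (median -1.18). Gpr34, a lysophosphatidylserine receptor, fell by 3.29 ± 0.55 and P2ry10 by 1.57 ± 0.25, followed by Gpr132 (-1.39), S1pr4 (-1.38) and S1pr1 (-1.18). In CD4 conventional T cells S1pr4 (-1.94) and P2ry10 (-1.50) fell. In NK cells Gpr34 (-2.72) and Gpr183, the oxysterol receptor (-2.61 ± 0.26, adjusted p = 0.000488), fell and Gpr174 rose (1.54), out of 6 tested. None of 7 passed in Tregs.

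Around Adora3, Entpd1 (CD39), which degrades extracellular ATP, rose in tumor CD8 T cells from 0.055 and 0.123 to 1.55 and 1.22 UMIs per 10,000 (4.02 ± 0.38, adjusted p = 0.00203) and in CD4 conventional T cells by 2.82 ± 0.33. Dpp4 rose (3.04 ± 0.56) and Nt5e (CD73), which forms adenosine, fell (-1.65 ± 0.33) in CD8 T cells. These were 3 of 6 adenosine genes tested there, and none of 4 passed in Tregs or of 3 in NK cells. Around Nmrk1, the NAD-consuming ectoenzyme gene Cd38 rose in CD8 T cells (3.01 ± 0.42) and in CD4 conventional T cells, where both controls held none, out of 5 tested in each. None of 4 passed in Tregs or in NK cells.

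Around Gcnt1, Galnt3, a transferase that begins O-glycans, rose (2.47 ± 0.37) and Selplg, the P-selectin ligand PSGL-1 itself, fell (-0.90 ± 0.22) in tumor CD8 T cells, out of 9 tested. Selplg fell in CD4 conventional T cells (-0.99 ± 0.21, 1 of 8 tested), Galnt1 in NK cells (-0.99 ± 0.24, 1 of 7 tested) and none of 6 passed in Tregs. Around Lmna, none of 11 other lamina and envelope genes passed in CD8 T cells, with a list median of 0.05. The B-type lamin Lmnb1 was at 3.66, 3.26, 3.59 and 2.35 there (-0.36 ± 0.27, adjusted p = 0.446). Syne2, a nesprin, fell in CD4 conventional T cells (-2.05 ± 0.32, 1 of 10 tested) and in dendritic cells (-1.73 ± 0.39, adjusted p = 0.0489, 1 of 10), and none of 9 passed in Tregs or in NK cells. The 6 partners of CD7 and contactin were too low to test in these gates.

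Genes of tissue residency were tested as well. This list too was chosen with earlier results of these data known. The paper reports its genes Itga1, Inpp4b and Cxcr6 as lower in NK cells of these tumors, so the counts are a description. Of 8 residency genes, 5 fell in tumor CD8 T cells (Itgae -7.44 ± 0.33, Ahr, Rgs1, Xcl1 and Cxcr6), 4 fell and 1 rose in CD4 conventional T cells, 1 of 7 fell in Tregs (Itgae -1.91 ± 0.26) and 3 fell in NK cells (Itgae -6.69 ± 0.43, Cxcr6 and Itga1). In macrophages Cd38 rose (3.44 ± 0.28) and Cxcr6 fell (-3.83 ± 0.43), the 2 list genes called there. In dendritic cells Itgae, Cd69, Dpp4, Pnp and Fut4 rose, and Entpd1, St3gal1, Fyn, Ptpn22, Gpr183, Itga1 and Syne2 fell. No list gene was called in mast cells by edgeR, and none of the NAD list or of the partners of CD7 and contactin could be tested there.

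Genes whose levels ran most alike were sought among 10594 genes over 27 sums of lymphocyte gates with at least 20 cells, as Pearson r of log2(CPM + 1). The sums share libraries and depth, and they mix control skin with tumors, the contrast that chose the genes. For these reasons r is a description. Gpr55 ran most like Itgae (r = 0.869), followed by Arhgef11 (0.826) and Capg (0.826). Itgae was lower in tumor CD8 T and NK cells as well, so this r is not separate from that contrast. Nmrk1 ran most like Ostf1 (0.886), Mbp (0.849) and Ppp1r16b (0.831). Ostf1 lies at chr19:18516137-18631823 on the minus strand, and 126 bases separate its start from that of Nmrk1 on the plus strand, so the most alike of 10594 genes was its head-to-head neighbour. Lmna ran most like Rara (0.897), Tnfrsf1b (0.882) and Ago2 (0.874), and Trat1 like St6gal1 (0.878), Tnfaip8 (0.849) and Lpxn (0.840). Gcnt1 ran most like St8sia4 (0.890), Hmces (0.888) and Rab8b (0.882), and Cd7 like Tmem57 (0.875), Ptk2b (0.868) and Iqgap1 (0.866). Cntn1 ran most like Dlc1 (0.879), Trpm6 (0.878) and Iffo2 (0.873), and Adora3 like Samd13 (0.925), Fads3 (0.903) and Rcc1l (0.901), genes that both follow DETC.

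**Figure D5:**
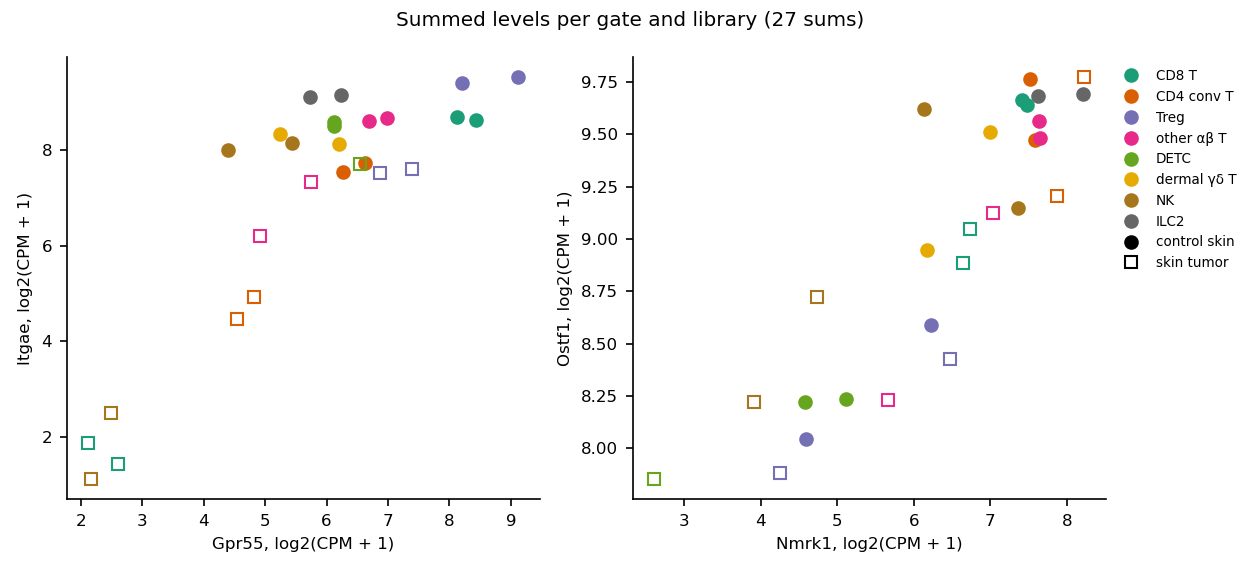
Summed levels, as log2(CPM + 1), of Gpr55 against Itgae and of Nmrk1 against Ostf1 in 27 sums of a lymphocyte gate in a library, coloured by gate, filled for control skin and open for tumors. In the Gpr55 plot the CD8 T and NK sums of the tumors lie together at the low end of both axes.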

How the data were processed

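Values were raw UMI counts as deposited by the authors, made with Cell Ranger on mm10 (7.1.0 in the processing notes, 7.0.1 in the file headers). Per the labels, replicates are separate samples of a group. In comparisons of tumor with control, p-values measure the spread between the 2 libraries of a group. Between gates of control skin and in the integrin splits, they measure the spread of the difference inside a library over the libraries used. In the NK split these were control 1 and tumor 1. The edgeR fit moderates the variance of each gene toward that of all genes tested. Small p-values thus do not rest on the spread of these few libraries alone. The labels name a NovaSeq6000 and the paper a NovaSeq X.

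The 8 genes, the gene lists and the motifs were chosen with earlier results of these data known. Cells needed at least 100 genes, 1000 UMIs, at most 15% mitochondrial UMIs and a log10 ratio of genes to UMIs of at least 0.8. Lymphocyte gates rested on marker UMIs, with at most 20 UMIs per 10,000 of genes of each other lineage. No doublet caller was run, and the 0 to 3 cells per library that fell in 2 gates were left out. Cells of the other gates, and those with no gate, were not used here. Named genes were the 8 genes and the 3 most alike to each. So were most list genes called in the tumor comparisons or the αβ T split, and those given as examples. List genes called between gates of control skin or in tumor ILC2 were not named for these comparisons. The same holds for residency genes called in CD4 conventional T cells and in the αβ T split. Counts were summed per gate and library with at least 10 cells, and tested with edgeR 4.0.16 (quasi-likelihood, TMM, filterByExpr, R 4.3.3), with Benjamini-Hochberg adjustment over all genes tested, at 0.05. The SE is the absolute log2 difference over the square root of F. The numbers of control and tumor replicates were not taken to pair the samples: same-number correlations of deviations were -0.062 to 0.145. With so few libraries these cannot exclude such a pairing, and the replicate block was tried as an alternative. Intervals are Clopper-Pearson at 95%, and they and the limit of 3 counts for a level of 0 cover counting error only. DESeq2 1.42.0, other scalings, filters, gates, left-out libraries and thinned cells were alternatives. The tests were tested on simulated data. Coordinates came from GENCODE M21 and promoters from RefSeq, GRCm38.p6. Some details of the line and the list of circulation genes are not reported here.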

Additional observations from a re-analysis of the deposited data

Results flagged for a closer look

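Each of these values was picked out because a gene was higher in both tumors in a gate and lower in both tumors in other gates. The difference between gates was not tested in any of them. Gpr55 was higher in tumor macrophages, with a log2 ratio of 1.26 from 0.0261, 0.0249, 0.0486 and 0.0905 UMIs per 10,000, and in neutrophils 0, 1, 3 and 5 UMIs also lay higher in tumors. Trat1 was higher in the ILC2 gate (1.51), which held 13 cells per tumor and UMIs of Trac and Foxp3. Nmrk1 was higher in CD4 conventional T cells (0.44). Gcnt1 was higher in dendritic cells (0.57), from 0.135, 0.192, 0.299 and 0.244. No group held the 4 samples that a test for outliers needs.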

How the results depend on the processing

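Lmna in dendritic cells and Gpr55 in the integrin split kept direction and call under every alternative tried, except that Gpr55 lost its call with no library block (edgeR, adjusted p = 1.00), as did Gcnt1 and Lmna in that split. The replicate block moved the number of genes called in 5 of the 9 tumor comparisons by over 1.5 times: from 603 to 388 in CD4 conventional T cells, 191 to 304 in Tregs, 39 to 210 in macrophages, 0 to 35 in DETC and 94 to 151 in ILC2. Leaving out the library block left 3 of 100 genes in the αβ T split and 0 of 11 in the NK split.

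With no filter on low counts, called genes numbered 1310 in CD8 T cells, 1131 in CD4 conventional T, 413 in Tregs, 717 in NK, 806 in macrophages, 1578 in dendritic and 166 in mast cells, and 852 between dermal γδ T cells and ILC2, 280 in the αβ T split and 47 in the NK split. DESeq2 called 87 genes in Tregs, 193 in NK cells, 357 in macrophages, 38 in mast cells, 2268 between DETC and ILC2, 1173 between DETC and dermal γδ T cells, 230 between dermal γδ T cells and ILC2 and 5 in the NK split. RLE factors left 0 in the NK split. A lineage limit of 10 gave 59 in the αβ T split and 29 in the NK split. Without Tregs the αβ T split gave 35, and without the 5% of cells with most UMIs mast cells gave 5.

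Leaving out 1 library gave 252 to 2141 genes in CD8 T cells, 3 to 874 in CD4 conventional T, 201 to 377 in Tregs, 48 to 558 in NK cells, 5 to 342 in macrophages, 252 to 730 in dendritic cells, 0 to 272 in mast cells and 51 to 108 in the αβ T split. The low values came without control 1 (252 in CD8, 3 in CD4 and 252 in dendritic cells), tumor 1 (48 in NK, 51 in the αβ T split), control 2 (5 in macrophages) and either control (0 in mast cells). The cause was not tested. The NK split could not be fitted without control 1 or tumor 1, and comparisons inside control skin leave no residual degrees of freedom without a library.

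Directions turned for Adora3 in mast cells without control 1 (0.20, and -1.20 without control 2), Cd7 in dendritic cells without control 2 (0.0081, and -1.02 without control 1), Cntn1 between dermal γδ T cells and ILC2 (-0.048) and Gcnt1 between DETC and ILC2 (-0.0090) at a lineage limit of 10, and Nmrk1 in macrophages without the cells with most UMIs (0.091). Gpr55 in dendritic cells turned with DESeq2 (-0.038), the replicate block (-0.077), without control 2 (-0.039), without tumor 1 (-0.55, and 0.33 without tumor 2) and without the cells with most UMIs (-0.033). In the αβ T split Cd7 turned in tumor libraries alone (-0.70), Trat1 in control libraries alone (-0.046), and Nmrk1 in control libraries alone (0.31) and without tumor 2 (0.013, and -0.71 without control 1). Over the alternatives, the log2 ratio of tumor to control took both signs in Tregs for Trat1 (-0.75 to 0.85) and Nmrk1 (-1.39 to 1.05). It did so too for Cntn1 in CD4 conventional T cells (-2.23 to 0.90) and Cd7 in NK cells (-0.53 to 0.19). As differences in percent of cells with a UMI, thinning to 2500 UMIs turned Cd7 in NK cells (2.48) and Trat1 in Tregs (-5.09), and thinning to 1000 turned Cntn1 (1.41) and Nmrk1 (2.42) in CD4 conventional T cells and Gpr55 in NK cells (1.66).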
